A study of Mus musculus with 4 samples.

Results

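The cytosolic ribosomal protein genes were examined in regulatory T (Treg) cells with and without RelA, the p65 subunit of NF-κB. Members were the genes of the count table whose symbol starts with Rpl or Rps and a digit, together with Rplp0, Rplp1, Rplp2 and Rpsa. Kinase genes of the Rps6k type, Rps19bp1 and genes named with "-ps" were left out. The rule used names only, with no measured value, and found 88 of the 27179 genes, 53 of the large and 35 of the small subunit. Of these, 84 had enough counts to be tested, 49 large and 35 small, among 11172 genes tested in all. The 4 not tested were Rpl10l, Rpl3l, Rpl39 and Rpl39l.

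The RNA came from CD4+Foxp3+ Treg cells, a T cell type that restrains immune responses, taken at steady state from spleen together with peripheral lymph nodes of the C57BL/6 strain. Libraries 1 and 2 of the WT group came from mice of wild-type genotype, and libraries 1 and 2 of the P65KO group from mice whose Treg cells lack RelA. The labels used here do not state the deleted allele, the Cre driver, the age of the mice, or whether each library came from a separate mouse. The p-values therefore reflect the spread among 4 libraries alone, part of which may be technical.

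A cytosolic ribosome joins a small subunit, which reads the mRNA, with a large subunit, which forms the peptide bond. Most ribosomal proteins are needed once per ribosome, and their mRNAs are among the most abundant of a lymphocyte. These mRNAs typically begin with a 5′ terminal oligopyrimidine (TOP) tract, through which mTOR and the RNA-binding protein LARP1 control their translation. Each active gene has many processed copies elsewhere in the mouse genome, mostly inactive, whose sequence is close to that of the spliced mRNA.

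The libraries held 4513863 to 4624230 counts, with no library standing apart in depth. Rela was at 189.9 and 173.4 CPM (counts scaled to library size) in the WT libraries and at 180.8 and 201.3 CPM in the P65KO libraries. The groups overlapped, and the edgeR adjusted p was 0.662. Counts over the whole gene, when the deleted exons are unknown, do not check the labels. Foxp3, the defining Treg factor, was at 371 to 528.1 CPM in all 4 libraries, and the summed level of 7 Treg markers was 3966 to 4026 CPM in WT and 3247 to 3745 CPM in P65KO. Of these markers, Ctla4, Ikzf2 and Tnfrsf18 were called lower, Il2ra was called higher and 3 did not pass. Signals of other origin differed between the groups. Xist was at 107.2 and 130.8 CPM in WT and at 0 and 0.443 CPM in P65KO, while the Y-linked gene Ddx3y was at 0 in both WT libraries and at 66.6 and 89.5 CPM in P65KO, so genotype and the sex of the mice cannot be told apart in these libraries. The 15 myeloid and dendritic markers summed to 800.6 and 896 CPM in WT and to 1886 and 1030 CPM in P65KO, and 10 of the 11 tested passed as higher. The 9 erythroid and platelet markers summed to 21.7 and 28.8 CPM in WT and to 112.3 and 193.1 CPM in P65KO, with all 4 tested called higher and the platelet gene Pf4 at 0 in every library. The 6 B cell markers summed to 36.0 and 41.1 CPM in WT and to 18.1 and 12.2 CPM in P65KO, with the 1 tested, Cd79b, called lower and Pax5 and Ebf1 at 0. The 5 CD8 and NK markers summed to 41.5 and 48.9 CPM in WT and to 40.6 and 37.2 CPM in P65KO, with 1 of 3 tested called lower. The 6 stromal and endothelial markers summed to 176.9 and 141.6 CPM in WT and to 225.4 and 248.5 CPM in P65KO, with the 1 tested, Pecam1, called higher. The part of these other cells in the ribosomal protein results below was not tested.

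In several families, genes named as copies of a member held most of the counts, and Rps27 shows this most clearly. Rps27, a small subunit protein with a zinc finger, lies at chr3:90212667-90213648 on GRCm38, and its intronless copy Rps27rt at chr9:114982366-114982739. The first 30 bases after each annotated start in RefSeq (GRCm38.p6) are given here, with the 29 bases that both share in capitals.
Rps27: cCTTTCCGGCGGTGACGACCTCCCTACGAG
Rps27rt: CTTTCCGGCGGTGACGACCTCCCTACGAGa
The spliced gene Rps27 held 221 counts over the 4 libraries and Rps27rt held 37802, so that 0.581% of the pair's counts were in Rps27. Its levels were 11.1 and 11.4 CPM in WT and 13.0 and 12.8 CPM in P65KO, against 1810 and 1970 CPM in WT and 2245 and 2243 CPM in P65KO for Rps27rt. Both P65KO libraries were above both WT libraries in either gene, yet neither passed the test, with adjusted p of 0.574 for Rps27 and 0.0723 for Rps27rt. In 50-base windows of their GENCODE transcripts, 91.1% of Rps27rt and 51.1% of Rps27 were also found in transcripts of other genes.

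The same imbalance occurred in other families. The table held 35 genes named as pseudogenes or retrogenes of 15 members. Rpl13 held 39 counts of its own against 2446 in its named copies, Rpl37 held 615 against 25960 and Rps6 held 2270 against 48495, the last in a single pseudogene, Rps6-ps4. Rpl34 held 6.99% of its family's counts and Rpl17 8.7%. In contrast, Rps19 kept 84.4%. Low values of members such as Rpl13 or Rps27 are values of the deposited counting. How that counting assigned reads shared by a member and its copies was not tested, and such reads cannot be told apart here.

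**Figure D1:**
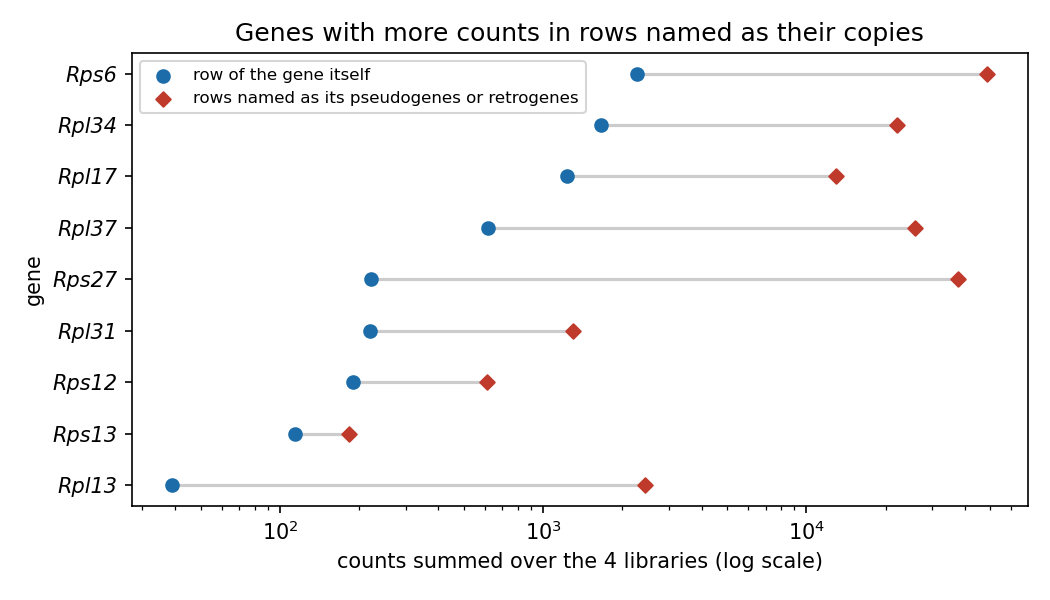
Counts summed over the 4 libraries (log scale) for the 9 members whose named copies together held more counts than the gene, with a circle for the gene itself and a diamond for all genes named as its pseudogenes or retrogenes. Rps27, Rpl37, Rps6 and Rpl13 sit far to the left of their copies, while Rps13 sits close to its own.

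Sharing with other transcripts was general: 84 of the 87 members with a GENCODE transcript had at least one 50-base window found in another gene. Rps3, a small subunit protein near the mRNA entry, had a share of 2.96% and Rpl8 had 7.86%, whereas Rpl9 had 93.3% and Rps4x 72.2%. Over the 87 members the Spearman correlation between the shared percentage and the mean level per length was -0.04, so the shared percentage did not order the levels. The members with under 10% shared windows, 7 of them tested, had a median log2 difference of 0.12 between the groups, with Rpl8 passing. This class holds Rpl34 (0.191% shared), which had only 6.99% of its family's counts, so exact windows did not capture all copies. The 33 tested members with 10% to under 50% shared had a median of 0.29, and the 43 with 50% or more had a median of 0.28. Whether the classes differ was not tested.

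Start sites are shown because the TOP tract is the element these mRNAs have in common. RefSeq promoters were found for 66 of the 88 members. Each window runs from 15 bases before to 15 bases after the annotated start, 5′ to 3′ on the gene's strand in GRCm38.p6, and capitals mark the longest run of C and T that touches the 5 bases either side of the start. The windows are chr4:86857353-86857382 (minus strand) for Rps6, chr7:45128731-45128760 (minus) for Rpl13a, chr2:26910792-26910821 (plus) for Rpl7a, chr17:33955651-33955680 (minus) for Rps18, chr5:107900513-107900542 (plus) for Rpl5 and chrX:102189377-102189406 (minus) for Rps4x.
Rps6: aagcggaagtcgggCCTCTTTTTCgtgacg
Rpl13a: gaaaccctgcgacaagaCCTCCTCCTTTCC
Rpl7a: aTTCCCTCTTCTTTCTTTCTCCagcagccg
Rps18: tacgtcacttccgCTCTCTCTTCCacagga
Rpl5: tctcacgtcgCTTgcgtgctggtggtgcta
Rps4x: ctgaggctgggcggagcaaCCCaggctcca
All 6 passed as higher in P65KO. The first 4 have a long run at the annotated start, while the annotated starts of Rpl5 and Rps4x have runs of 3 bases. These windows are examples. Other members that rose had long runs, such as 14 bases in Rpl4, or short ones, such as 2 bases in Rpl23. Whether run length goes with the difference between the groups was not tested. For Rpl5 and Rpl7a the start used lies downstream of the gene's first base (chr5:107900508 and chr2:26910685). Runs at those first bases were not examined. A run of 5 or more C or T touching the 5 bases either side of the start occurred in 35 of 66 members (53%) and in 32.9% of 27025 promoters. A run of 7 or more occurred in 26 of 66 members (39.4%) and in 14% of promoters.

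Upstream sequence was searched from 250 bases before to 50 bases after the start, on both strands. The motif CGGAAG, the core bound by ETS factors and frequent in ribosomal protein promoters, was found in 43 of 66 members (65.2%) and in 17.2% of all promoters. The 100 bases upstream of Rps25 are at chr9:44407614-44407713 (plus strand), and those of Rps7 at chr12:28635954-28636053 (minus strand). They are printed as examples that hold the motif, from the members with the largest differences below. Rpl5, Rpl13a and Rps4x, also among those members, had no match in the sequence searched. Whether the motif goes with the difference between the groups was not tested. Capitals mark the motif on either strand.
Rps25: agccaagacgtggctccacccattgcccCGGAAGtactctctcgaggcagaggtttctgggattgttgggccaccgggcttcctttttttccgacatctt
Rps7: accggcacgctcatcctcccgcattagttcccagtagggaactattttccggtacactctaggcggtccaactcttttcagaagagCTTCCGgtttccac
The E-box CACGTG, the core bound by Myc and Max among others, was found in 5 of 66 members (7.58%) and 7.24% of promoters. A κB-type motif, GGGNNTTCC, which can overlap the ETS core, was found in 5 of 66 members (7.58%) and 5.72% of promoters. A match is a match of letters only. The shares over all promoters, here and for the runs above, include genes that were not tested. Shares among the tested genes were not examined.

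Levels between members were compared per length, as length- and depth-scaled read counts (RPKM) averaged over the 4 libraries from the deposited log2 values. Among the 5 highest were Rps27rt at 5506 RPKM, Rplp1 at 5282, Rpl8 at 4787 and Rps15 at 3637. Rplp1 encodes an acidic protein of the ribosomal stalk and Rpl8 a protein at the base of the peptidyl transferase centre. At the other end, Rpl13 was at 2.86 RPKM, Rps4l at 2.85 and Rpl11 at 10.3. Rpl10l, Rpl3l and Rpl39 had 0 counts in every library, which allows up to 3 counts, or 0.646 to 0.664 CPM, in each. This limit holds only for reads that the deposited counting gave to these genes. Rpl39, unlike the other two, encodes a core protein of the large subunit in most tissues.

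All members together took 4.58% (95% Wilson interval 4.56 to 4.6) and 5.14% (5.12 to 5.17) of the counts in WT libraries 1 and 2. They took 6.04% (6.02 to 6.07) and 5.58% (5.55 to 5.6) in P65KO libraries 1 and 2. Such intervals and the limits from 0 counts cover counting error alone, as the labels name no molecular identifiers that would tell PCR copies apart. Both P65KO libraries were above both WT libraries, with means of 4.86% ± 0.398 (SD, n = 2) in WT and 5.81% ± 0.331 (SD, n = 2) in P65KO. With 2 libraries against 2, an exact two-sided permutation test cannot go below p = 0.333. Genes named as pseudogenes of members, which lie outside the rule, took 0.493% and 0.552% in WT and 0.634% and 0.612% in P65KO. Fewer cells of a type and less RNA per cell cannot be told apart in such bulk samples.

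The order of the libraries was shared by most members. The median member differed by 0.20 on the log2 scale between the WT libraries, and 79 of 84 were higher in WT library 2 than in WT library 1. P65KO library 1 was the highest of the 4 libraries: its median member was 0.44 above WT library 1 and 0.25 above WT library 2. P65KO library 2 was 0.31 above WT library 1 but only 0.09 above WT library 2, with 55 of 84 members higher. The distance between the WT libraries was thus larger than that between WT library 2 and P65KO library 2.

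**Figure D2:**
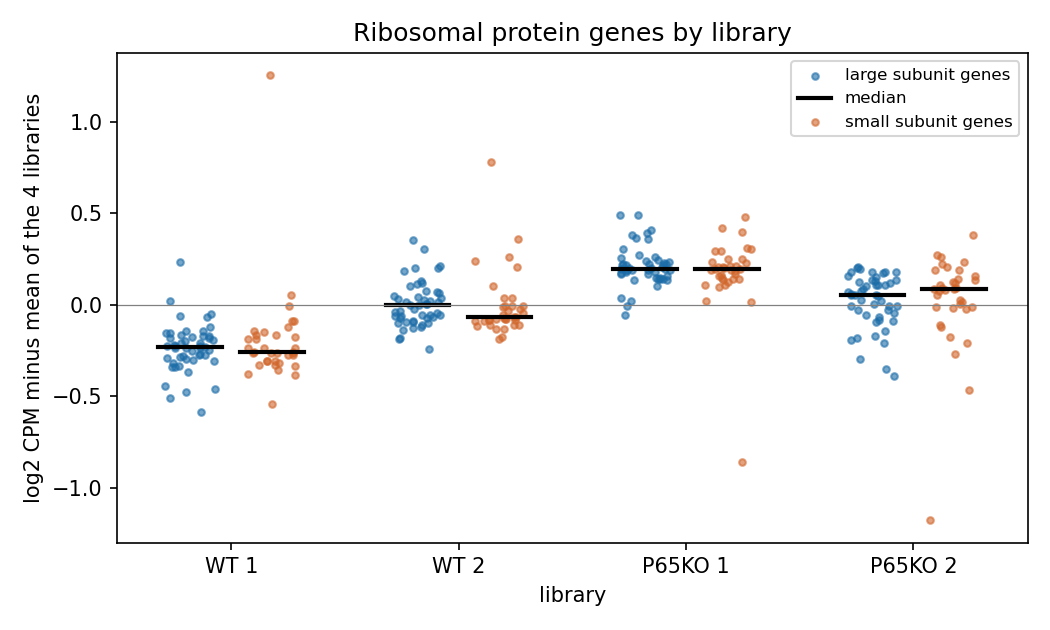
Each point is 1 of 84 members in 1 library, as log2 CPM minus the mean of the 4 libraries, with large and small subunit genes side by side and black bars at their medians. The medians of both subunits are lowest in WT library 1 and highest in P65KO library 1.

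Ribosomal protein genes were modestly higher in the P65KO libraries, by a median of 1.22-fold (log2 0.28, quartiles 0.15 and 0.35), against a median log2 of 0.00 over all 11172 genes. In edgeR's quasi-likelihood test with Benjamini-Hochberg adjustment over all genes, 27 members rose, 1 fell and 56 did not pass. Over all genes, 9.00% passed as higher and 11.7% as lower. The difference was positive in 75 of the 84 members, and both P65KO libraries were above both WT libraries in 55, where 29.7% of all genes showed this. Before adjustment, 47 members had a p under 0.05, of which 46 were higher in P65KO, as were 15.1% of all genes.

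The calls lay among the abundant members. Of 48 members with a mean of at least 100 CPM, 26 rose, all 48 were positive, and the median log2 difference was 0.31, while 15.0% of all genes at that level passed as higher. Both P65KO libraries were above both WT libraries in 43 of these 48, against 40.7% of genes at that level. Of the 36 tested members below 100 CPM, only Rpl5 rose and Rps4l fell, and their median was 0.16. The median standard error was 0.10 for the abundant and 0.17 for the scarce members, and 27 of the scarce were positive and 9 negative. Why fewer of the scarce members passed was not tested.

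**Figure D3:**
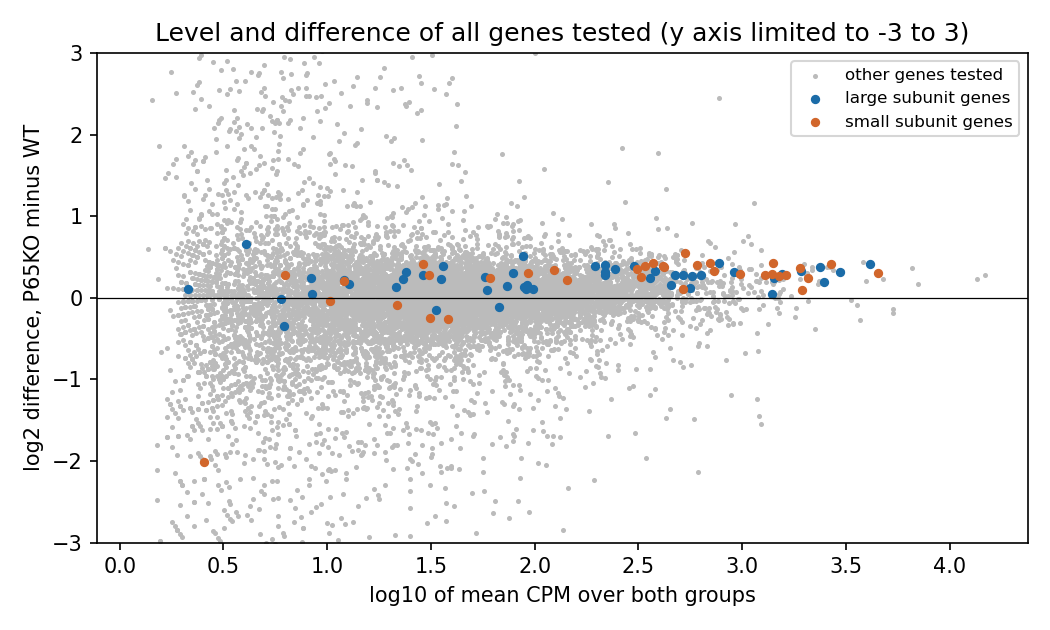
The log2 difference between the groups (y axis, limited to -3 to 3) is plotted against the log10 mean CPM (x axis) for all 11172 genes tested, with members in colour. The abundant members lie above 0, while those under 100 CPM scatter more widely and Rps4l lies at -2.02.

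These calls rested on both libraries of each group. Without WT replicate 1, edgeR called 0 of 85 members higher, against 2.31% of all genes, 21 members were higher at an unadjusted p under 0.05, and the median log2 difference was 0.18. Without WT replicate 2, 10 of 84 members (11.9%) passed as higher, against 2.17% of all genes. Without P65KO replicate 1, 4 of 85 (4.71%) passed, against 5.26% of all genes, and without P65KO replicate 2, 3 of 85 (3.53%) against 5.88%. With no filter on low counts, which raises the number of genes tested to 16183, 1 of 85 members (1.18%) passed as higher, against 1.52% of all genes. The share of members called was thus below that of all genes in each of these settings but the one without WT replicate 2.

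Among small subunit genes, 14 of 35 rose and Rps4l fell, with a median log2 difference of 0.29. Rps7, a protein also known to bind the p53 regulator Mdm2, lies at chr12:28630847-28635953 and was at 401.9 and 461.8 CPM in WT and at 587.5 and 681.4 CPM in P65KO. Both P65KO values were well above both WT values, and the rise was 1.47-fold (log2 0.55, SE 0.11, adjusted p = 0.00245), the largest of the members that passed. Rps20, a protein of the small subunit head (chr4:3831584-3835655), was at 1109 and 1292 CPM in WT and at 1601 and 1636 CPM in P65KO. Its groups did not overlap either, and it rose 1.35-fold (adjusted p = 0.00761).

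Rps25, which helps ribosomes use viral internal entry sites, was at 288.4 and 347.9 CPM in WT and at 451.2 and 406.8 CPM in P65KO. It rose 1.35-fold with an adjusted p of 0.0124. Rps2, a protein at the mRNA entry, was at 496.4 and 548.7 CPM in WT and at 663.1 and 721.2 CPM in P65KO, a rise of 1.32-fold (adjusted p = 0.00894). Rps15, a small subunit head protein, was at 1574 and 1754 CPM in WT and at 2223 and 2076 CPM in P65KO. It rose 1.29-fold with an adjusted p of 0.015.

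Some small subunit proteins are known for roles of their own. Rps6, the classical substrate of the S6 kinases downstream of mTOR, was at 102.7 and 116 CPM in WT and at 137.4 and 140.6 CPM in P65KO, and rose 1.27-fold (adjusted p = 0.0255). With Rps6-ps4 added its difference was similar, at a log2 of 0.37 (adjusted p = 0.0134). Rps19, whose human counterpart is often mutated in Diamond-Blackfan anaemia, was at 331.6 and 387.3 CPM in WT and at 506.3 and 432.9 CPM in P65KO, and rose 1.31-fold (adjusted p = 0.0236).

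Rps3, which has also been described as a partner of p65 in NF-κB complexes, was at 3629 and 4466 CPM in WT and at 5258 and 4770 CPM in P65KO. Both P65KO libraries were above both WT libraries, but the WT libraries lay far apart and the gene did not pass (1.24-fold, adjusted p = 0.0663). It passed with DESeq2 (adjusted p = 0.0243). Rpsa, also known as the laminin receptor, was at 1825 and 1937 CPM in WT and at 2093 and 1927 CPM in P65KO. Its groups overlapped and its difference was small (1.07-fold, adjusted p = 0.52).

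Among large subunit genes, 13 of 49 rose and none of the 49 fell, with a median log2 difference of 0.25. At an unadjusted edgeR p under 0.05, 22 of them differed, 0 of these lower, and DESeq2 also called 0 lower. Over all genes, 3646 of 11172 had such a p in either direction. Rpl8, at chr15:76904071-76906318, had the highest CPM of the members that rose, at 3365 and 3731 CPM in WT and 4843 and 4643 CPM in P65KO. The groups were clearly separated, with a rise of 1.34-fold (log2 0.42, SE 0.09, adjusted p = 0.0066). Rpl23, which also binds Mdm2, was at 173.8 and 203.3 CPM in WT and at 253.8 and 245.4 CPM in P65KO, and rose 1.32-fold (adjusted p = 0.0118).

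Rpl13a, which besides its place in the ribosome takes part in interferon-induced translational silencing, was at 559.9 and 765 CPM in WT and at 981.2 and 798.3 CPM in P65KO. WT library 2 and P65KO library 2 lay close together, and the call was at the edge of the threshold (1.34-fold, adjusted p = 0.0483). It did not pass with DESeq2 (adjusted p = 0.404). Rpl5, at chr5:107900508-107909005, forms a particle with 5S rRNA and Rpl11 that can bind Mdm2, and was at 57.1 and 88.7 CPM in WT and at 113.8 and 93.9 CPM in P65KO. It too was near the threshold (1.42-fold, SE 0.17 on the log2 scale, adjusted p = 0.0495), did not pass with DESeq2 (adjusted p = 0.0842), and held 55% of its family's counts. Its pseudogene Rpl5-ps2 rose with a log2 difference of 0.53 (adjusted p = 0.0103). Rpl11 itself was at 4.56 and 7.53 CPM in WT and at 6.84 and 5.09 CPM in P65KO, with overlapping groups (log2 -0.02, adjusted p = 0.974).

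Other members that rose included, in the small subunit, Rps4x, described below with the X-linked genes, Rps21, Rps16, Rps18 and Rps3a1, with folds from 1.23 for Rps3a1 to 1.34 for Rps4x. In the large subunit they included Rpl19, Rpl21, Rpl4, Rpl18, Rpl30, Rpl7, Rpl7a and Rpl3. Their folds ran from 1.21 for Rpl3 to 1.31 for Rpl19. The most even within groups was Rpl4, at 2059 and 2088 CPM in WT and 2709 and 2679 CPM in P65KO (adjusted p = 0.00827), a choice made after its values were seen.

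The stalk proteins, which recruit translation factors to the large subunit, missed the threshold in the main comparison. Rplp0, the stalk base, was at 2428 and 2854 CPM in WT and at 3518 and 3034 CPM in P65KO (1.24-fold, adjusted p = 0.0605). Rplp2 was at 440.8 and 498.8 CPM in WT and at 573.2 and 568.7 CPM in P65KO (1.22-fold, adjusted p = 0.0517), and Rplp1 was at 2243 and 2395 CPM in WT and at 2715 and 2568 CPM in P65KO (1.14-fold, adjusted p = 0.171). In all 3, both P65KO libraries were above both WT libraries. With DESeq2, Rplp0 and Rplp2 passed, at adjusted p of 0.0212 and 0.0422. Rpl38, known for its part in translating Hox mRNAs, was at 7.16 and 6.67 CPM in WT and at 6.17 and 4.65 CPM in P65KO (log2 -0.35, adjusted p = 0.489).

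**Figure D4:**
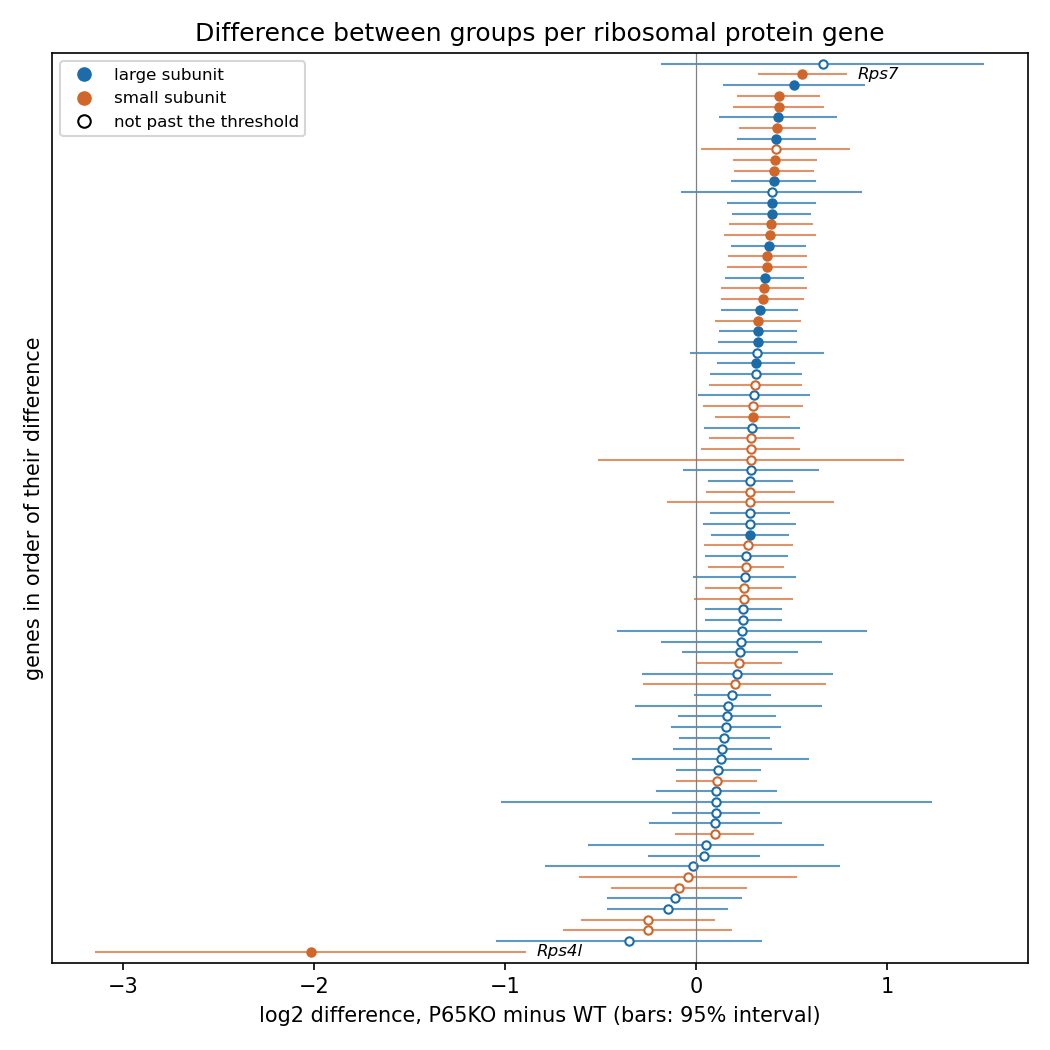
The log2 difference between the groups (x axis, P65KO minus WT) is shown for each of the 84 members tested, with bars for the 95% interval, filled points for those past the threshold and colours for the subunits. Large and small subunit genes are mixed along the order, 75 of 84 points lie above 0, and Rps4l stands alone at the low end.

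The balance of the subunits moved little in the counts of the members alone. The ratio of summed large to summed small subunit counts was 0.984 and 0.968 in WT and 0.975 and 0.951 in P65KO. The groups overlapped, with means of 0.976 ± 0.0115 (SD, n = 2) and 0.963 ± 0.017 (SD, n = 2). Summed RPKM gave ratios of 0.922 and 0.916 in WT and 0.903 and 0.867 in P65KO, which did not overlap. Restricted to members of at least 100 CPM, 12 of 24 large and 14 of 24 small subunit genes rose, with median log2 differences of 0.30 and 0.34. The difference between the subunits in these counts was not tested. These sums hold Rps27rt and Rpl37rt but leave out genes named with "-ps", among them Rps6-ps4 with 48495 counts and the copies of Rpl34 with 22047. The ratio with such genes added was not examined.

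Several members have a close paralog. Rpl22, needed for early T cell development, was at 500.3 and 572 CPM in WT and at 614.6 and 547.2 CPM in P65KO, and its paralog Rpl22l1 was at 76.2 and 92.5 CPM in WT and at 97.7 and 87.7 CPM in P65KO. Neither passed (adjusted p = 0.47 and 0.463), and both sets of libraries overlapped. Rpl7, a protein of the large subunit, rose 1.25-fold (adjusted p = 0.0241), from 1628 and 1775 CPM in WT to 2170 and 2089 CPM in P65KO. Rpl7l1, its biogenesis-related paralog, was at 89.4 and 100.9 CPM in WT and at 105.9 and 98.8 CPM in P65KO (adjusted p = 0.535). Whether the paralogs differ in response was not tested.

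Rps27l, a p53-inducible paralog of Rps27, was at 35.4 and 48.2 CPM in WT and at 42.8 and 27.2 CPM in P65KO, with overlapping groups (log2 -0.26, adjusted p = 0.423). Rpl3, a protein that reaches to the peptidyl transferase centre, was at 411.1 and 451 CPM in WT and at 534.1 and 511.7 CPM in P65KO (1.21-fold, adjusted p = 0.0485). Its muscle paralog Rpl3l had no counts. Rpl39l, a paralog best known from testis, had 1.52 and 2.37 CPM in WT and 0.662 and 0.886 CPM in P65KO, too few to test.

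Of the 4 X-linked members, Rps4x (chrX:102184941-102189391) rose, at 585.8 and 605.3 CPM in WT and 764.2 and 833.9 CPM in P65KO (1.34-fold, adjusted p = 0.00532). Rpl10, which joins the large subunit last, was at 20.0 and 22.6 CPM in WT and at 27.1 and 25.9 CPM in P65KO (adjusted p = 0.187). Rpl36a was at 2.82 and 3.44 CPM in WT and at 5.51 and 4.43 CPM in P65KO (log2 0.66, SE 0.39, adjusted p = 0.263), and its autosomal copy Rpl36al was at 176.2 and 219.9 CPM in WT and at 246.1 and 234.7 CPM in P65KO (adjusted p = 0.0938). In these 3 genes the P65KO libraries were above the WT libraries without passing the test. On the autosomes alone, 26 of 81 tested members rose with a median log2 difference of 0.28.

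Rps4l, a copy of Rps4x that RefSeq lists as a transcribed pseudogene at chr6:148354656-148355596, was the only member that fell. It had 22 and 16 counts in WT and 5 and 4 counts in P65KO, or 4.78 and 3.44 CPM against 1.1 and 0.886 CPM. The groups did not overlap, and it fell by 2.02 on the log2 scale (SE 0.52, adjusted p = 0.015). The call was lost with DESeq2 (adjusted p = 0.147), with no filter (adjusted p = 0.0717), and on leaving out any of the 4 libraries (adjusted p from 0.0537 to 0.205), with log2 differences of -1.76 to -2.23 in these settings. It was kept with limma-voom (adjusted p = 0.0269).

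Other genes of translation were set beside the members. Of the 224 tested in 9 lists, 20 (8.93%) rose, close to the 9.00% of all genes, and 2 (0.893%) fell, so the share of these genes that rose was not above the background. Of 32 initiation factors, Eif1, which guards start codon choice, rose 1.32-fold, the X-linked Eif2s3x fell by 0.43 on the log2 scale, and 30 did not pass, with a median log2 difference of 0.13. Of 10 elongation and termination factors, 3 rose and 7 did not pass, with a median of 0.19. Eef2, which moves the ribosome along the mRNA, was at 5824 and 5646 CPM in WT and at 7122 and 7700 CPM in P65KO (1.29-fold, adjusted p = 0.0115). Eef2k, the kinase that inhibits Eef2, was at 14.1 and 13.1 CPM in WT and at 27.1 and 28.8 CPM in P65KO (2.05-fold, adjusted p = 0.000863). Eef1b2 rose 1.23-fold, and Eef1a1, which delivers aminoacyl-tRNA, was at 11860 and 13080 CPM in WT and at 14930 and 14370 CPM in P65KO without passing (adjusted p = 0.0984).

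Of 12 other genes with TOP mRNAs, Snhg8, Tpt1 and the small subunit protein gene Gnb2l1 (RACK1) rose 1.5-, 1.33- and 1.25-fold, and 9 did not pass, Pabpc1 (adjusted p = 0.788) and Npm1 (adjusted p = 0.133) among them. The median of this list was a log2 difference of 0.11. Fau, which encodes a ribosomal protein fused to a ubiquitin-like sequence, did not pass (adjusted p = 0.31).

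Ribosome production requires assembly factors and RNA polymerase I as well. Of 59 biogenesis factors, 6 rose (Nob1, Rrp9, Nolc1, Nop56, Bop1 and Bysl), against 9.00% of all genes, and 53 did not pass, with a median log2 difference of 0.18. Nob1, the endonuclease that completes 18S rRNA, was at 42.8 and 34 CPM in WT and at 58 and 54 CPM in P65KO (1.46-fold, adjusted p = 0.0117). Of 14 genes of the RNA polymerase I machinery, Polr1a and Polr1b, its largest subunits, rose, each 1.38-fold, and 12 did not pass (median 0.21). Of 16 growth control genes, Myc, Larp1, Max and Rictor rose and 12 did not pass, Mtor among them (adjusted p = 0.452). Myc, which drives transcription of many ribosome genes, was at 95.9 and 102.6 CPM in WT and at 132.8 and 156.1 CPM in P65KO (1.46-fold, adjusted p = 0.00306).

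Of 4 ribosomal protein surveillance genes of the p53 pathway, 0 passed with edgeR and 0 with DESeq2, including Mdm2 (edgeR adjusted p = 0.53) and Trp53 (adjusted p = 0.0938), the only 1 of the 4 with an unadjusted p under 0.05 (0.0249). The 75 tested mitochondrial ribosomal protein genes, which build a separate ribosome, had a median log2 difference of -0.03. Only Mrpl30 rose and Mrps6 fell among them. Over the 9 lists, the number that rose was 12 with no scaling between libraries, 8 with DESeq2, 1 with no filter and 2 to 5 on leaving out 1 library.

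Short abundant genes outside the members also differed between the libraries of the same group. The 84 other genes of at least 100 CPM and no longer than the median member (681.5 bases) were 0.22 higher in WT library 2 than in WT library 1 by their median log2 difference, with 80 of 84 higher. The same set was 0.07 lower in P65KO library 2 than in P65KO library 1, and 0.17 higher in P65KO than in WT, with 23 called higher and 6 called lower. The 2079 longer genes at that level moved by -0.01, 0.04 and 0.05 in the same comparisons, with 283 called higher and 231 called lower. They were of any length above 681.5 bases and were not matched in length to the longer members.

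Members that are themselves longer showed the within-group shift too. The 42 members longer than the median differed by 0.19 between the WT libraries, by -0.10 between the P65KO libraries and by 0.29 between the groups. The 42 shorter members differed by 0.22, -0.20 and 0.27. Both sets hold members at any level, unlike the other genes above. At 100 CPM or more, the 28 longer members differed by 0.17, -0.08 and 0.32, and the 20 shorter by 0.19, -0.05 and 0.29. Mitochondrial ribosomal protein genes were 0.14 higher in WT library 2 than in WT library 1 but differed by -0.03 between the groups, while biogenesis factors moved by 0.00 between the WT libraries and by 0.18 between the groups. The part of gene length, or of what differs between libraries of a group, in the difference between the groups was not tested.

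**Figure D5:**
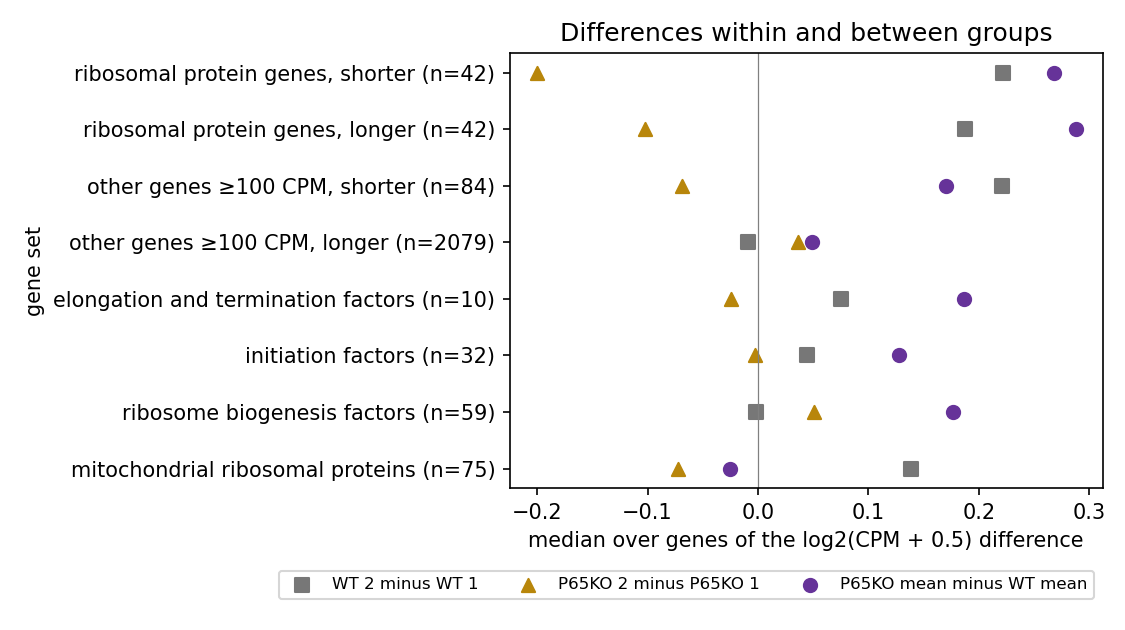
Median log2(CPM + 0.5) difference over the genes of each set (x axis) between the WT libraries (squares), between the P65KO libraries (triangles) and between the group means (circles). The sets of ribosomal protein genes hold tested members at any level. Ribosomal protein genes and other short abundant genes are spread out within groups as well as between them, while longer abundant genes stay near 0.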

How the data were processed

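Treg cell RNA was sequenced in 2 WT and 2 P65KO libraries, grouped and numbered by their titles, with TruSeq libraries per the labels' protocols. Subread, featureCounts and limma are named in the submitters' processing notes, with build GRCm38 (mm10). With versions and strand setting not given in the sources used here, reads of overlapping or antisense genes cannot be told apart. The authors deposited raw counts per gene and log2 RPKM values with no scaling between libraries, from which gene lengths were read.

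Counts were filtered (filterByExpr), scaled by TMM and compared with edgeR 4.0.16 (R 4.3.3), by its two-sided quasi-likelihood test, with all 4 libraries, Benjamini-Hochberg adjustment over 11172 genes and a threshold of 0.05. Library totals from 4513863 to 4624230 counts limit precision for genes under 100 CPM. The procedure was tested on simulated data. Shared windows were exact 50-base matches to GENCODE transcripts of other genes. Promoters and all 88 members' coordinates came from RefSeq (GRCm38.p6).

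The members and lists were chosen with earlier results of these data known. Named were the 10 members with the largest differences that passed in each direction, the 5 highest per length, listed paralogs, members with known separate roles, X-linked members, and set genes of each list; some of these are not reported here. Alternatives were other scalings, no filter, DESeq2 1.42.0, limma-voom (limma 3.58.1), a replicate block and leaving out each library. Copies summed into members and crossed replicate numbers were chosen after seeing the data.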

Additional observations from a re-analysis of the deposited data

How the results depend on the processing

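The 27 members called higher and 1 called lower became 1 and 0 with no filter, 31 and 0 with DESeq2 (23 of the 27 shared), and 0 to 10 and 0 on leaving out 1 library. Large subunit calls were 1 with no filter and 0 to 5 without 1 library, from 13. Small subunit calls were 0 and 0 to 5, from 14, and at unadjusted p under 0.05 with no filter 33 members were higher. List genes called higher (20) were 12 with no scaling, 1 with no filter, 8 with DESeq2 and 2 to 5 without 1 library, and those called lower (2) were 0, 0 and 0 to 1 under the last 3. Without 1 library the median difference ran from 0.18 to 0.39 over members, 0.15 to 0.38 over large and 0.19 to 0.41 over small subunit genes, lowest without WT replicate 1 and highest without WT replicate 2. The large to small ratio differed by -0.0125 from counts and by -0.0342 from summed RPKM. The cause of these changes was not tested. With no filter, 3678 of 16183 genes had an unadjusted edgeR p under 0.05 in either direction, against 3646 of 11172 in the main fit. Members higher at that unadjusted p went from 46 to 33. Leaving out a library leaves 1 in its group, assumed to vary like the others. No scaling moved the median of all genes to -0.04, called 21 members higher and changed the share of all calls that were higher from 43.5% to 35.7%. Other scalings, limma-voom and summed copies kept 27 of the 27 higher calls, with 28 to 30 in all. The replicate numbers did not pair the samples (correlation -0.14 over genes, -0.34 over members), and a replicate block gave 24 higher and 1 lower. Crossed pairing, chosen after seeing the data, gave 46 higher members (23 large, 23 small) and 31 higher list genes. A pairing chosen in this way can lower the spread left within groups, so no conclusion is drawn from these counts. Replicates of a group differed beyond sampling noise (chi-square over its degrees of freedom, 3.49 for WT and 3.97 for P65KO). The median standard error was larger for the members under 100 CPM than for the others.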
